A study of Danio rerio with 8 samples.

Results

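The genes of the mitochondrial respiratory chain and the ATP synthase were described complex by complex in whole zebrafish embryos. Members were chosen by symbol: every array probe named to a gene whose symbol begins with nduf, sdh followed by a letter from a to d, uqcr, cox followed by a digit from 4 to 8, or atp5. The rule took 155 probes of 39162 and 89 genes of the 12792 that could be named. Of the 109 symbols that fit the rule in the RefSeq gene table, 20 had no probe named to them, among them ndufb3, ndufv3, uqcr10, atp5f1e, cox8a and cox8b. Complex I had 57 probes for 39 genes, complex II 15 probes for 8 genes, complex III 16 probes for 7 genes, complex IV 28 probes for 17 genes and the ATP synthase 39 probes for 18 genes. The ndufa4 genes, which carry a complex I name but encode a subunit found with complex IV, were counted with complex IV.

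Oxidative phosphorylation takes place in the inner mitochondrial membrane. Complex I accepts electrons from NADH and complex II from succinate, ubiquinone carries them to complex III, cytochrome c carries them to complex IV, and complex IV passes them to oxygen. Complexes I, III and IV pump protons out of the matrix, and the ATP synthase lets them flow back through its membrane part (Fo) to turn its catalytic head (F1) and make ATP. Most subunits are encoded in the nucleus and are described here, and the few encoded in mitochondrial DNA carry other names and were not members. Heart and skeletal muscle are rich in these complexes.

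The study asked how depletion of Tbx5a, a T-box transcription factor of heart and fin development, changes gene expression in the embryo and how a miR-19a mimic given at the same time alters it. Embryos of the AB strain were injected at the 1-cell stage with 1.5 ng of morpholino and 0.25 ng of microRNA mimic and collected at 24 h post fertilisation (hpf) in pools of 50. The groups were MO-Tbx5a+miR-19a (tbx5a morpholino with the miR-19a mimic, 3 arrays), MO-Tbx5a (the same morpholino with a control mimic, 3 arrays) and MO-Ct (control morpholino with the control mimic, 2 arrays). The tbx5a morpholino is directed at the translational start and acts on protein, so RNA levels do not check the depletion, and no probe was named to tbx5a.

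For MO-Tbx5a+miR-19a the titles and the design text give the miR-19a mimic, whereas the treatment label names a morpholino, MO-19a, and the design was followed. The labels also give those samples another labelling kit and RNA amount (0.5 ug against 200 ng), so kit and treatment cannot be told apart in any comparison with them. Medians of the 8 arrays lay between 7.77 and 7.80 on the log2 scale, and arrays correlated at 0.994 to 0.997 within groups and at 0.968 to 0.991 between groups across probes. Scanner files were read for the 3 MO-Tbx5a+miR-19a samples. Each correlated at 0.947 to 0.949 with its own column of the deposited table and at up to 0.957 with MO-Ct 2, and differences between scans correlated at -0.08 to 0.26 with the differences between the matching columns. The scans therefore did not follow their own columns and entered no comparison. In them, 154 of the 155 member probes were well above background on all 3 arrays, and a probe of ndufs8b was so on 1 of 3.

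Taken as a set, the members had a lower median level in MO-Tbx5a embryos than in either other group. With each probe set against its own mean over the 8 arrays, the median of the 155 member probes stood at 0.157, 0.230 and 0.355 log2 units in MO-Tbx5a+miR-19a embryos, at -0.385, -0.390 and -0.431 in MO-Tbx5a embryos and at 0.255 and 0.288 in MO-Ct embryos. No MO-Tbx5a array overlapped an array of another group, while the MO-Tbx5a+miR-19a and MO-Ct arrays overlapped. The linear signal was also summed over the members, with only the probe of highest mean level taken for each gene. As log2, this sum ran between 20.48 and 20.70 in MO-Tbx5a+miR-19a embryos and between 20.02 and 20.05 in MO-Tbx5a embryos. It was 20.62 on both MO-Ct arrays. In whole embryos, fewer cells of a type and less RNA per cell cannot be told apart.

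**Figure D1:**
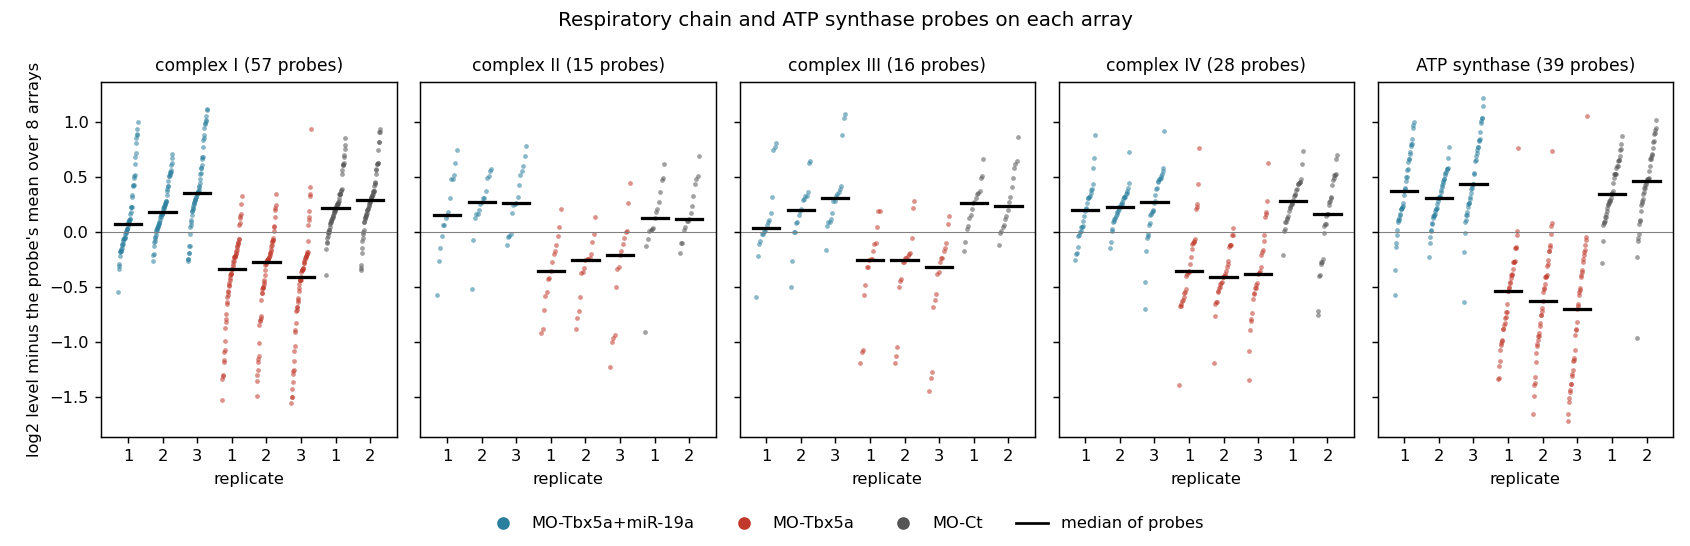
Each point is a member probe, plotted as its deposited log2 level minus its mean over the 8 arrays (vertical axis), for each array (horizontal axis, replicate number within group), in a panel for each complex; black bars are medians. In all 5 panels the 3 MO-Tbx5a arrays have negative medians, from -0.697 to -0.206, and the arrays of MO-Tbx5a+miR-19a and MO-Ct have positive ones.

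Changes are differences of log2 levels in 3 comparisons: MO-Tbx5a minus MO-Ct (the depletion comparison), MO-Tbx5a+miR-19a minus MO-Tbx5a (the mimic comparison) and MO-Tbx5a+miR-19a minus MO-Ct (the combined comparison). Calls required a limma p and an adjusted p (Benjamini-Hochberg, over all probes) both under 0.05 and more than 1.3-fold change. In the depletion comparison, 106 member probes were called lower and 4 higher. Among all probes, 19.6% were called lower and 18.7% higher. The median change of the members was -0.625 on the log2 scale, against 0.005 for all probes. On 127 of the 155 member probes every MO-Tbx5a array lay below every MO-Ct array, an order found for 31.4% of all probes. Taking the probe with the highest mean level (the brightest) for each gene, 61 of 89 genes were called lower and 2 higher, against 20.6% and 16.5% of all named genes.

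In the mimic comparison, 104 member probes were called higher and 6 lower, against 20.2% and 21.9% of all probes. The median change was 0.62, against -0.023 for all probes. Every MO-Tbx5a+miR-19a array lay above every MO-Tbx5a array on 112 member probes, an order found for 26.9% of all probes. By brightest probe 57 genes were called higher and 2 lower, against 21.0% and 20.3% of all named genes. The MO-Tbx5a arrays enter both comparisons with opposite sign, so the counts are given side by side and are not independent.

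In the combined comparison, 4 member probes were called higher and 4 lower, against 5.24% and 5.95% of all probes, and the median change was -0.025. By brightest probe 3 genes were called higher and 1 lower, against 5.52% and 6.62% of all named genes. The counts of this comparison were near or below those shares. A probe without a call is not shown to be equal in both groups. The count of 8 probes was 5 without MO-Tbx5a+miR-19a 1 or MO-Tbx5a+miR-19a 3. Of all probes, 6.1% and 7.34% were called in those fits, against 4384 of 39162 with all arrays. Without MO-Ct 1 or MO-Ct 2, which leaves that group a single array, calls were also fewer among the members and among all probes.

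**Figure D2:**
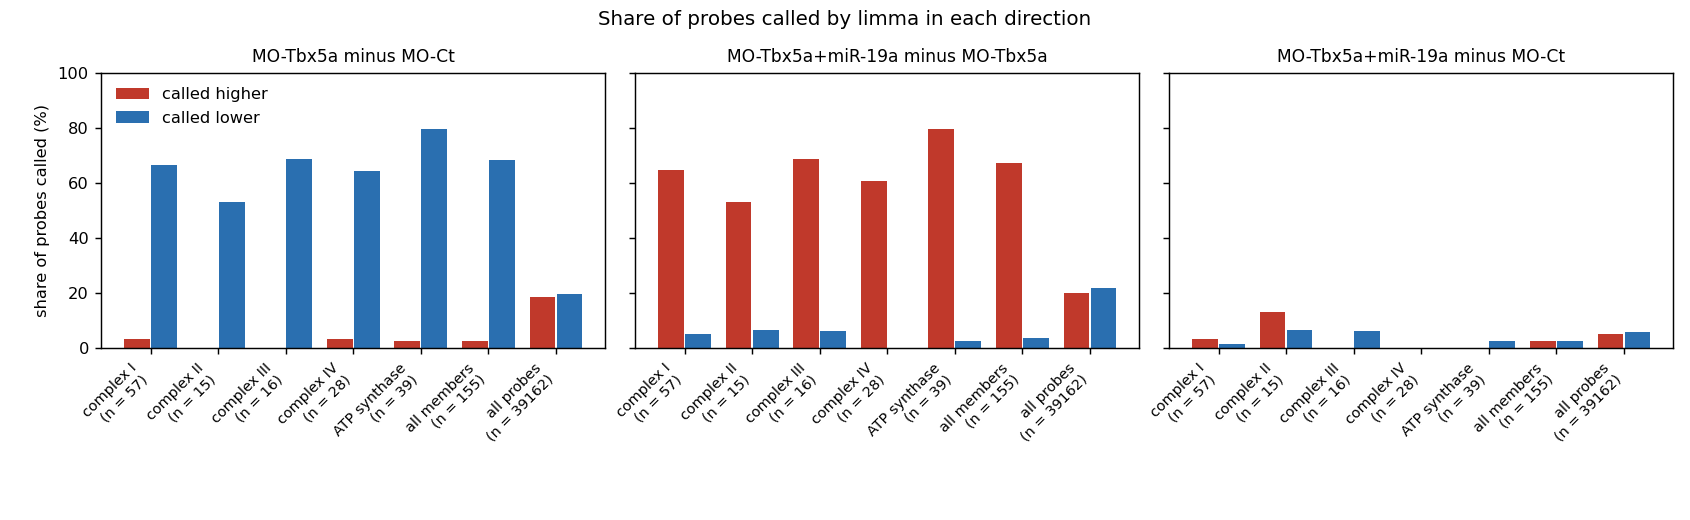
Bars give the percentage of probes called higher (red) and lower (blue) in each complex, in all 155 members and in all 39162 probes, in a panel for each comparison. In MO-Tbx5a minus MO-Ct the lower bars of all 5 complexes exceed the 19.6% of all probes, in MO-Tbx5a+miR-19a minus MO-Tbx5a the higher bars of all 5 exceed 20.2%, and in MO-Tbx5a+miR-19a minus MO-Ct the bars are short.

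Member probes were bright. Of the 155, 129 had a mean level above 9.195, the lower edge of the brightest tercile of all probes, and the median level of the 155 was 12.632. Within that tercile, 96 of the 129 were called lower in the depletion comparison, where 23.6% of its probes were. In the mimic comparison, 94 of the 129 were called higher, where 23.9% were. The size of the change also differed by brightness among the members. The 39 probes with mean levels between 9 and 12 had a median change of -1.115 in the depletion comparison, the 53 between 12 and 14 had -0.592 and the 38 at 14 or above had -0.699, against 0.005, -0.017 and -0.075 for all probes of those levels. The 25 members below 9 had a median of -0.273, against 0.008 for all probes of that level. Of these 25 members, 10 were called lower, against 17.4% of all probes of that level.

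In the ATP synthase, 31 of 39 probes were called lower and 1 higher in the depletion comparison, and 31 were called higher and 1 lower in the mimic comparison. The median changes were -1.0 and 1.05, the largest among the 5 complexes in both comparisons. Of the 12 probes of the F1 head, 10 were called lower and 1 higher in the first comparison and 11 higher and 1 lower in the second, with median changes of -1.61 and 1.54. Of the 27 probes of the Fo part, the stalks and the inhibitors, 21 were called lower in the first comparison and 20 higher in the second, with medians of -0.835 and 0.85.

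The gamma subunit gene atp5f1c, whose product is the rotating shaft of the head, read 13.51, 13.16 and 13.67 in MO-Tbx5a+miR-19a embryos, 12.02, 11.90 and 11.46 in MO-Tbx5a embryos and 13.37 and 13.66 in MO-Ct embryos. It fell by 1.72 ± 0.19 (SE) in the depletion comparison (limma adjusted p = 3.43e-05) and was higher by 1.65 ± 0.17 in the mimic comparison (adjusted p = 9.82e-06). The MO-Tbx5a arrays lay below all others, and the other arrays overlapped. The delta subunit gene atp5f1d read 14.72, 14.60 and 14.86 in MO-Tbx5a+miR-19a embryos, 14.32, 14.30 and 14.07 in MO-Tbx5a embryos and 14.84 and 15.03 in MO-Ct embryos on its brightest probe. On that probe it was called lower in the depletion comparison (-0.705, limma adjusted p = 0.00124) and higher in the mimic comparison (0.50). Its dimmer probe changed by more (-1.68 and 1.92, called in both), so the size of the step depended on the probe.

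The catalytic beta subunit gene atp5f1b had 5 probes, which differed in the size of the change. The brightest read 17.14, 17.21 and 17.25 in MO-Tbx5a+miR-19a embryos, 16.48, 16.54 and 16.89 in MO-Tbx5a embryos and 17.07 and 16.88 in MO-Ct embryos. MO-Tbx5a 3 lay just above MO-Ct 2 there, and the change of -0.34 ± 0.14 against MO-Ct was not called (limma adjusted p = 0.0728; without MO-Tbx5a 3 it was -0.46, adjusted p = 0.0131). The other 4 probes were all called lower in that comparison, with changes from -2.14 to -1.12, and all 5 were called higher in the mimic comparison, with changes from 0.56 to 2.29.

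The alpha subunit gene atp5fa1, the partner of beta in the catalytic ring, had 4 probes. The brightest read 15.62, 15.84 and 15.90 in MO-Tbx5a+miR-19a embryos, 15.00, 15.00 and 14.94 in MO-Tbx5a embryos and 15.79 and 15.99 in MO-Ct embryos, and 2 further probes moved the same way with changes of -1.89 and -2.06 in the depletion comparison. The fourth read 11.79, 12.26 and 11.72 in MO-Tbx5a+miR-19a embryos, 13.12, 13.09 and 13.41 in MO-Tbx5a embryos and 12.08 and 11.40 in MO-Ct embryos. It was called in the opposite direction in both comparisons (1.47 and -1.28), and atp5fa1 was the 1 member gene with calls in both directions in the depletion comparison. All 4 probes carry the same transcript accession in the files, and where on the transcript they lie was not examined.

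**Figure D3:**
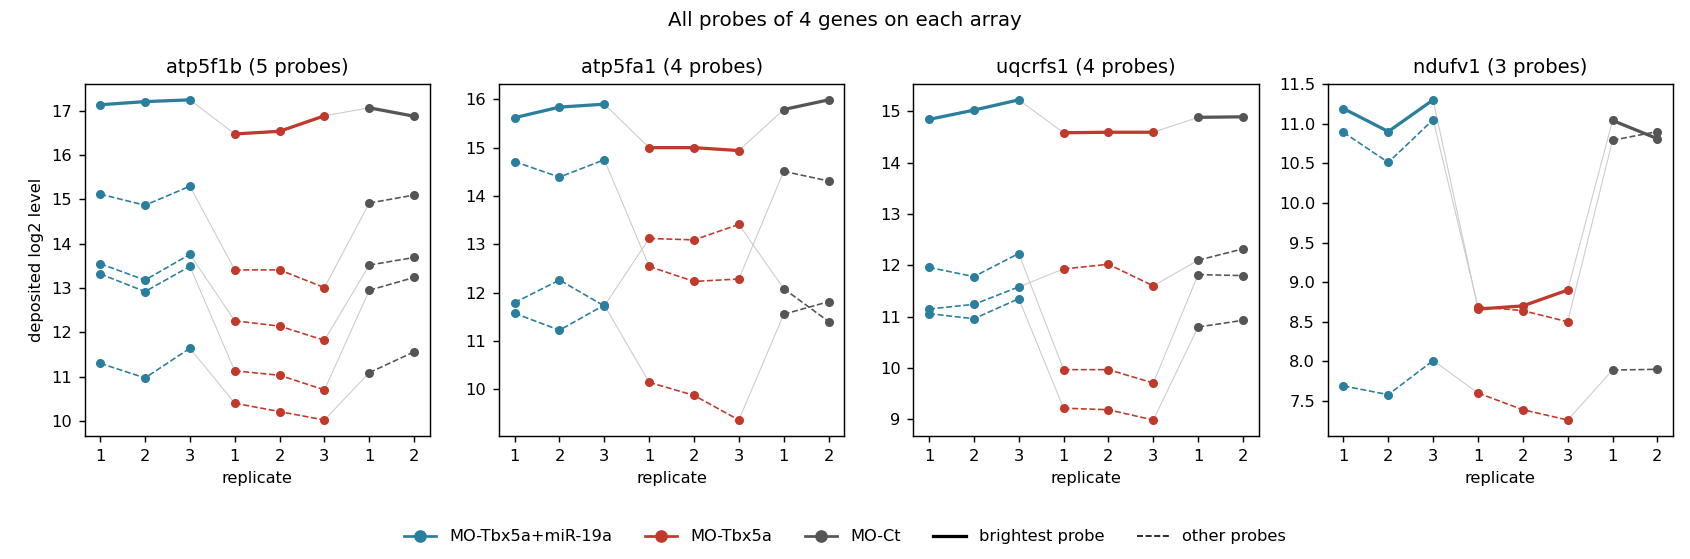
Deposited log2 level (vertical axis) of every probe of atp5f1b, atp5fa1, uqcrfs1 and ndufv1 on the 8 arrays (horizontal axis, replicate number within group); lines join the arrays of a probe, solid for the brightest probe and dashed for the others. The brightest atp5f1b probe changes by -0.34 in the depletion comparison while another of its probes changes by -2.14, and a probe each of atp5fa1 and uqcrfs1 departs from the dip of the rest.

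The c subunits form the proton-driven ring of Fo and are encoded by several copies. For atp5mc3a the arrays read 12.99, 12.73 and 13.06 in MO-Tbx5a+miR-19a embryos, 11.26, 11.57 and 11.35 in MO-Tbx5a embryos and 12.55 and 12.77 in MO-Ct embryos. For the brightest probe of atp5mc1 they read 15.40, 15.58 and 15.71 in MO-Tbx5a+miR-19a embryos, 14.18, 14.23 and 14.65 in MO-Tbx5a embryos and 15.41 and 15.32 in MO-Ct embryos. All 7 probes of atp5mc1, atp5mc3a and atp5mc3b were called lower in the depletion comparison, with changes from -2.39 to -0.78, and higher in the mimic comparison, with changes from 1.05 to 2.35. The copies are similar in sequence, and how far a probe of 1 copy also binds RNA of another was not tested.

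In the peripheral stalk, which holds the head still, atp5pd (subunit d) had the lowest change of any brightest probe. It read 12.36, 12.16 and 12.61 in MO-Tbx5a+miR-19a embryos, 10.57, 9.93 and 10.07 in MO-Tbx5a embryos and 12.33 and 12.60 in MO-Ct embryos, a log2 change of -2.275 ± 0.19 in the depletion comparison (4.84-fold lower, limma adjusted p = 8.02e-06). The stalk gene atp5pb (subunit b) also fell (-1.435 ± 0.18), and so did both dimmer probes of atp5po (-1.605 and -0.84), for the subunit that joins stalk and head, whose brightest was not called (-0.34). The stalk gene atp5pf (coupling factor 6) differed from these. It read 10.37, 10.49 and 10.53 in MO-Tbx5a+miR-19a embryos, 10.72, 10.77 and 10.60 in MO-Tbx5a embryos and 11.09 and 11.14 in MO-Ct embryos, so that MO-Tbx5a+miR-19a was the lowest group. Its change in the combined comparison was -0.65 ± 0.12 (adjusted p = 0.00505), with an adjusted p of 0.0585 without MO-Ct 2. Its call in the depletion comparison (-0.42, adjusted p = 0.0128) was lost without MO-Ct 2 and without MO-Tbx5a 3, where the changes were -0.39 and -0.37.

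The inhibitor genes atp5if1a and atp5if1b, whose products stop the enzyme from running backwards, had different calls. Neither probe of atp5if1a was called, and its brightest read 15.84, 15.86 and 15.84 in MO-Tbx5a+miR-19a embryos, 15.59, 15.59 and 15.48 in MO-Tbx5a embryos and 15.79 and 15.84 in MO-Ct embryos. Both probes of atp5if1b were called lower in the depletion comparison (-0.685 and -1.0). Of the subunit e copies, atp5mea was not called on either probe (-0.08 and -0.19 in the depletion comparison), whereas 2 of 3 probes of atp5meb were called lower in that comparison (-0.77 and -0.74). These differences between copies were not tested. Of the other small Fo genes, atp5l, atp5md and atp5mj were called lower in the depletion comparison on the brightest probe, with changes from -1.24 to -0.55.

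In complex I, 38 of 57 probes were called lower and 2 higher in the depletion comparison, and 37 were called higher and 3 lower in the mimic comparison, with median changes of -0.555 and 0.533. The 13 probes of the core subunits, which carry the electron path from NADH to ubiquinone, had medians of -0.91 and 1.02, with 10 called lower in the first comparison and 11 higher in the second. The 38 probes of the accessory subunits had medians of -0.59 and 0.51, with 27 called lower and 25 called higher. The 6 probes of the assembly factors had medians of 0.01 and 0.11, with 1 called in each direction in both comparisons.

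The flavoprotein gene ndufv1, whose product takes electrons from NADH, showed the largest step of the core. Its brightest probe read 11.19, 10.90 and 11.30 in MO-Tbx5a+miR-19a embryos, 8.66, 8.70 and 8.90 in MO-Tbx5a embryos and 11.04 and 10.81 in MO-Ct embryos. It fell by 2.17 ± 0.15 in the depletion comparison (4.505-fold, limma adjusted p = 3.26e-06). Its dimmest probe changed less (-0.48). On the brightest probe the MO-Tbx5a arrays stood apart from all others and the remaining 5 arrays overlapped.

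Among the other core genes, the iron-sulfur subunit genes ndufv2 and ndufs7 fell in the depletion comparison (-1.24 and -0.945). The brightest probes of ndufs1 and ndufs3 had small changes of -0.48 and -0.50, which were called with all arrays but not without MO-Ct 1, MO-Ct 2 or, in turn, MO-Tbx5a 1 (ndufs1) or MO-Tbx5a 3 (ndufs3). In those fits and after quantile normalisation their changes ran from -0.51 to -0.36 for ndufs1 and from -0.61 to -0.39 for ndufs3. Their changes in the mimic comparison (0.38 and 0.41) were likewise lost, with values down to 0.26 for ndufs1 and 0.30 for ndufs3, when MO-Tbx5a 1, MO-Tbx5a+miR-19a 2 or MO-Tbx5a+miR-19a 3 was left out, and also without MO-Tbx5a 2 (ndufs1) or MO-Tbx5a 3 (ndufs3). A dimmer probe of each was called in both comparisons with larger changes (-0.91 and 1.19 for ndufs1, -1.42 and 1.03 for ndufs3).

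The copies ndufs8a and ndufs8b, for another iron-sulfur subunit, were highest in MO-Tbx5a+miR-19a embryos on their brightest probes. The ndufs8a probe read 12.55, 12.93 and 12.93 in MO-Tbx5a+miR-19a embryos, 11.84, 12.13 and 11.88 in MO-Tbx5a embryos and 12.32 and 11.97 in MO-Ct embryos. The brightest ndufs8b probe, a dim one, read 6.66, 6.78 and 6.91 in MO-Tbx5a+miR-19a embryos, 5.58, 5.73 and 5.97 in MO-Tbx5a embryos and 6.13 and 6.09 in MO-Ct embryos. Neither was called in the depletion comparison (-0.195 and -0.35), while both were called higher in the mimic comparison (0.85 and 1.02) and in the combined comparison (0.66 and 0.67, limma adjusted p = 0.0215 and 0.00985). The calls in the combined comparison were lost for ndufs8b without MO-Ct 1 or MO-Ct 2 (adjusted p = 0.0614 to 0.091), and for ndufs8a without MO-Ct 2, MO-Tbx5a+miR-19a 2 or MO-Tbx5a+miR-19a 3 (change 0.48 to 0.64, adjusted p = 0.0517 to 0.23, alternatives other than a left-out array included). The dimmer ndufs8b probe did not share this order. It read 5.06, 5.25 and 5.09 in MO-Tbx5a+miR-19a embryos, 4.94, 4.99 and 5.03 in MO-Tbx5a embryos and 5.28 and 5.24 in MO-Ct embryos, with no call in any comparison. Without MO-Tbx5a 3 the brightest ndufs8b probe was called lower in the depletion comparison as well.

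Of the 27 accessory subunit genes, 19 were called lower and 1 higher on the brightest probe in the depletion comparison, and 17 higher and 2 lower in the mimic comparison. The gene ndufb9, of the membrane arm, read 12.28, 12.05 and 12.53 in MO-Tbx5a+miR-19a embryos, 10.24, 10.13 and 9.87 in MO-Tbx5a embryos and 12.05 and 12.24 in MO-Ct embryos, with a log2 change of -2.065 ± 0.16 in the depletion comparison (limma adjusted p = 5.91e-06). The acyl carrier gene ndufab1a and the gene ndufa9a, which is needed for the junction of the arms, also fell in that comparison (-1.505 and -2.06). The gene ndufb11 was also called lower in the depletion comparison (-0.66). It had the highest change of the division in the combined comparison (0.28) and ndufc1 the lowest (-0.325), and neither was called there. The call of ndufc1 in the depletion comparison (-0.59) was lost without MO-Ct 2 (-0.49, adjusted p = 0.056).

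The other accessory genes called lower on the brightest probe in the depletion comparison were ndufa2, ndufa5, ndufa6, ndufa7, ndufa8, ndufa13, ndufb4, ndufb5, ndufb6, ndufb8, ndufb10, ndufc2, ndufs4 and ndufs5, with changes from -1.05 to -0.42. For ndufs6 only the dimmer probe was called lower (-0.53). No probe of ndufa10, ndufa11, ndufa12, ndufb2 or ndufb7 was called in that comparison.

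Accessory genes without this pattern included ndufa1 and ndufa3. The brightest ndufa1 probe read 9.93, 9.78 and 9.73 in MO-Tbx5a+miR-19a embryos, 10.23, 10.20 and 10.30 in MO-Tbx5a embryos and 10.00 and 9.65 in MO-Ct embryos. It was called higher in the depletion comparison (0.42, limma adjusted p = 0.0237), a call lost without MO-Ct 2 (0.24, adjusted p = 0.267) and without MO-Tbx5a 3 (0.39, adjusted p = 0.0513), and lower in the mimic comparison (-0.43). Its dim second probe was called lower in the combined comparison (-0.53), a call lost without MO-Ct 1, MO-Ct 2, MO-Tbx5a+miR-19a 1 or MO-Tbx5a+miR-19a 3. The ndufa3 probe read 9.04, 8.94 and 8.88 in MO-Tbx5a+miR-19a embryos, 9.21, 9.39 and 9.55 in MO-Tbx5a embryos and 8.99 and 9.16 in MO-Ct embryos, and was called only in the mimic comparison (-0.43). That call was lost without MO-Tbx5a 3 (-0.35), and without MO-Tbx5a 1 the probe was called higher in the depletion comparison (0.40). On the brightest probe of both genes MO-Tbx5a was the highest group.

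Among the assembly factors, which build complex I and leave it, the brightest probe was called for 1 of 4 genes. The gene ndufaf1 read 8.50, 8.27 and 8.61 in MO-Tbx5a+miR-19a embryos, 7.54, 7.59 and 7.45 in MO-Tbx5a embryos and 8.20 and 8.52 in MO-Ct embryos, a fall by 0.83 ± 0.14 in the depletion comparison (limma adjusted p = 0.000585). Brightest probes of ndufaf2, ndufaf5 and ndufaf7 had changes of 0.17, 0.085 and -0.065 in that comparison, with no call. The dimmer ndufaf2 probe was called higher in the depletion comparison (0.46) and lower in the mimic comparison (-0.40).

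**Figure D4:**
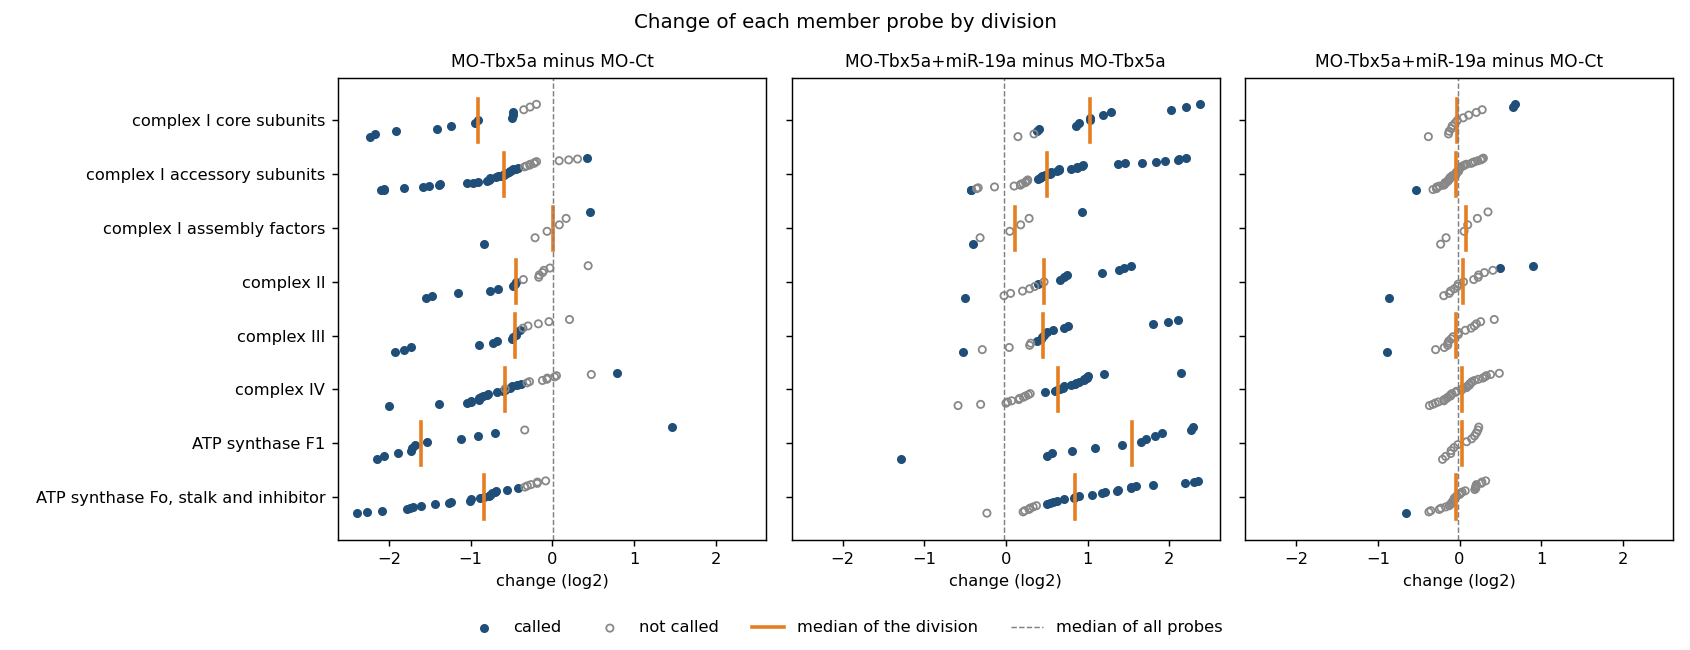
Each point is a member probe at its log2 change (horizontal axis) in a row for its division, filled where called by limma; orange bars are medians of the division and the dashed line is the median of all probes. The bars of F1 (-1.61 and 1.54) lie farthest from the dashed line in the first 2 panels, those of the assembly factors (0.01 and 0.11) lie nearest to it, and in MO-Tbx5a+miR-19a minus MO-Ct all bars lie close to it.

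In complex II, which also belongs to the tricarboxylic acid cycle, 8 of 15 probes were called lower in the depletion comparison, and 8 were called higher and 1 lower in the mimic comparison. The medians were -0.445 and 0.467. The flavoprotein gene sdha read 12.79, 12.89 and 13.06 in MO-Tbx5a+miR-19a embryos, 12.09, 12.04 and 12.46 in MO-Tbx5a embryos and 13 and 12.73 in MO-Ct embryos on its brightest probe (-0.67 in the depletion comparison, limma adjusted p = 0.00422, and -0.53 with adjusted p = 0.0579 without MO-Ct 1). The iron-sulfur gene sdhb depended on the probe. The brightest read 13.07, 13.03 and 13.09 in MO-Tbx5a+miR-19a embryos, 13.07, 13.09 and 13.10 in MO-Tbx5a embryos and 13.23 and 13.15 in MO-Ct embryos and was not called in any comparison. The other read 9.56, 9.24 and 9.71 in MO-Tbx5a+miR-19a embryos, 8.05, 8.15 and 7.71 in MO-Tbx5a embryos and 9.42 and 9.62 in MO-Ct embryos, with changes of -1.55 in the depletion comparison and 1.53 in the mimic comparison.

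On brightest probes, the membrane anchor genes of complex II had smaller changes than sdha in the depletion comparison. The brightest sdhdb probe read 12.68, 13.10 and 13.13 in MO-Tbx5a+miR-19a embryos, 12.26, 12.29 and 12.11 in MO-Tbx5a embryos and 12.62 and 12.71 in MO-Ct embryos. The anchors sdhc and sdhdb were called lower in the depletion comparison (-0.48 and -0.445), and both calls were lost in 4 of the fits that left out an array (without MO-Ct 1, MO-Ct 2 or MO-Tbx5a 3 for both, MO-Tbx5a 1 for sdhdb and MO-Tbx5a 2 for sdhc), with changes from -0.55 to -0.39. The copy sdhda was dim on both probes and not called. A second sdhdb probe was lower in MO-Tbx5a+miR-19a embryos (9.51, 9.56 and 9.96) than in MO-Tbx5a embryos (10.29, 10.22 and 10.03) and in MO-Ct embryos (10.55 and 10.52), and was called lower in both comparisons of the first group (-0.50 and -0.86).

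Of the complex II assembly factors, sdhaf4 showed the pattern of the majority. It read 8.73, 8.80 and 8.94 in MO-Tbx5a+miR-19a embryos, 7.54, 7.53 and 7.25 in MO-Tbx5a embryos and 8.46 and 8.73 in MO-Ct embryos. The factor sdhaf2, which attaches the flavin to sdha, was highest in MO-Tbx5a+miR-19a embryos on its second probe, with 10.68, 10.57 and 10.45 there, 9.78, 9.96 and 9.99 in MO-Tbx5a embryos and 10.13 and 10.01 in MO-Ct embryos. That probe and the brightest were called higher in the combined comparison (0.50 and 0.905, limma adjusted p = 0.0253 and 0.0371). The brightest probe varied within groups (9.32 and 10.13 on the MO-Ct arrays), and its call was lost without MO-Ct 1 or any single MO-Tbx5a+miR-19a array (adjusted p up to 0.306, other settings included). The call of the second probe was lost without MO-Ct 1, MO-Ct 2 or MO-Tbx5a+miR-19a 1. The third sdhaf2 probe was called lower in the depletion comparison (-0.77, limma adjusted p = 0.00235) and higher in the mimic comparison (1.18). Its MO-Tbx5a+miR-19a arrays (9.31, 9.30 and 9.39) also lay above its MO-Ct arrays (8.82 and 9.03), with no call in the combined comparison (0.41). The factor sdhaf3 was called in the depletion comparison (-0.46) and in the mimic comparison (0.39), and lost the first call without MO-Ct 1 (-0.38) and the second without MO-Tbx5a 3, MO-Tbx5a+miR-19a 2 or MO-Tbx5a+miR-19a 3 (0.36 to 0.38).

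In complex III, the cytochrome bc1 complex, 11 of 16 probes were called lower in the depletion comparison, and 11 were called higher and 1 lower in the mimic comparison, with medians of -0.46 and 0.45. The small subunit gene uqcrq read 13.70, 13.80 and 14.01 in MO-Tbx5a+miR-19a embryos, 13.11, 13.16 and 12.97 in MO-Tbx5a embryos and 13.96 and 14 in MO-Ct embryos, the lowest change of a brightest probe in the complex (-0.90 ± 0.13, limma adjusted p = 0.00019). The brightest probe of the hinge protein gene uqcrh was called lower in the depletion comparison (-0.50), a call lost without MO-Ct 1, MO-Tbx5a 1 or MO-Tbx5a 2 (-0.44 to -0.40). Its dimmer probe was called lower there as well (-0.45). The core protein genes uqcrc1, uqcrc2a and uqcrc2b were called lower in that comparison on the brightest probe (-0.435, -0.40 and -0.675), and a dimmer probe of uqcrc1 by more (-1.81). The brightest probe of uqcrb, for the ubiquinone-binding subunit, was not called in any comparison (-0.17, 0.04 and -0.13). Of its dimmer probes, 1 was called lower in the depletion comparison (-0.48) and another higher in the mimic comparison (0.47).

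The Rieske iron-sulfur gene uqcrfs1 had 4 probes of 3 kinds. The brightest read 14.84, 15.02 and 15.22 in MO-Tbx5a+miR-19a embryos, 14.58, 14.59 and 14.59 in MO-Tbx5a embryos and 14.88 and 14.89 in MO-Ct embryos. It was not called in the depletion comparison (-0.30, limma adjusted p = 0.082) and was called in the mimic comparison (0.44), a call lost without MO-Tbx5a+miR-19a 3 and after quantile normalisation (0.32 to 0.34). A pair of dimmer probes fell by 1.93 and 1.73 in the depletion comparison and was higher by 2.11 and 1.99 in the mimic comparison. The fourth read 11.15, 11.24 and 11.58 in MO-Tbx5a+miR-19a embryos, 11.93, 12.02 and 11.60 in MO-Tbx5a embryos and 12.10 and 12.32 in MO-Ct embryos, and was called lower against MO-Tbx5a (-0.53) and against MO-Ct (-0.89, adjusted p = 0.00572), the last not without MO-Ct 2.

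In complex IV, cytochrome c oxidase, 18 of 28 probes were called lower and 1 higher in the depletion comparison, 17 were called higher in the mimic comparison, and none was called in the combined comparison, where 5 of 28 had an unadjusted p under 0.05 in limma. Of all 39162 probes, 10613 had such a p there, which is a larger share. The medians of complex IV were -0.58, 0.64 and 0.03. The gene cox4i1, for the large nuclear subunit in contact with the catalytic core, read 15.49, 15.73 and 15.81 in MO-Tbx5a+miR-19a embryos, 15.16, 15.14 and 14.92 in MO-Tbx5a embryos and 15.91 and 16.04 in MO-Ct embryos. The gene cox5aa read 14.74, 14.64 and 15.01 in MO-Tbx5a+miR-19a embryos, 14.12, 14.12 and 13.63 in MO-Tbx5a embryos and 14.87 and 15.04 in MO-Ct embryos, the lowest change of a brightest probe in this complex (-0.998 ± 0.17, limma adjusted p = 0.000572). All 3 probes of ndufa4a were called lower in the depletion comparison (-0.99 to -0.88) and higher in the mimic comparison (0.96 to 0.99), the last of these the highest change of a brightest probe in the complex.

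The small subunit genes cox5ba, cox6c, cox7b and cox7a2l were called lower in the depletion comparison, with changes from -0.79 to -0.38, and neither probe of ndufa4b was called there.

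The alternative forms of complex IV subunits were set beside the common ones. On brightest probes, cox4i1 changed by -0.90 in the depletion comparison, and cox4i2, known in mammals as the form of lung and of low oxygen, by -0.12 with no call. The gene cox6a1 changed by -0.61, a call lost without MO-Ct 1 (-0.52, limma adjusted p = 0.0666), and cox6a2, known in mammals as the form of heart and skeletal muscle, by -0.06 with no call. A dimmer probe of cox4i2 and of cox6a2 was nevertheless called lower (-0.585 and -0.675), and so was the dimmer probe of cox6a1 (-2.005). The gene cox7a2a fell by 0.80, and cox7a1, the mammalian heart and muscle form, was dim (5.21 to 5.71 over all arrays) and not called.

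The genes cox6b1, cox6b2 and cox5b2 varied within groups or by setting. The cox6b1 probe read 12.76, 12.63 and 12.02 in MO-Tbx5a+miR-19a embryos, 13.48, 12.69 and 13 in MO-Tbx5a embryos and 13.16 and 12 in MO-Ct embryos, and was not called. Without MO-Ct 1 it was called higher in the depletion comparison (1.06, limma adjusted p = 0.0253), and without either MO-Ct array it was called lower in the mimic comparison (-0.59, adjusted p = 0.0464). The brightest cox5b2 probe read 10.22, 9.81 and 9.33 in MO-Tbx5a+miR-19a embryos, 10.22, 9.66 and 10.41 in MO-Tbx5a embryos and 9.57 and 9.03 in MO-Ct embryos. Its call in the depletion comparison (0.80, adjusted p = 0.0276) was lost without MO-Ct 2, MO-Tbx5a 1 or MO-Tbx5a 3 and with trend and robust moderation (0.53 to 0.80, adjusted p = 0.0641 to 0.26), and its other probes changed by 0.05 and 0.03. The call of cox6b2 (-0.43) was lost in 6 settings, among them without MO-Ct 1, MO-Ct 2 or MO-Tbx5a 3 (-0.48 to -0.21). The gene cox7c fell by 0.85 in the depletion comparison, and its call in the mimic comparison (0.48) was lost without MO-Tbx5a+miR-19a 3 and after quantile normalisation (0.34 to 0.40).

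**Figure D5:**
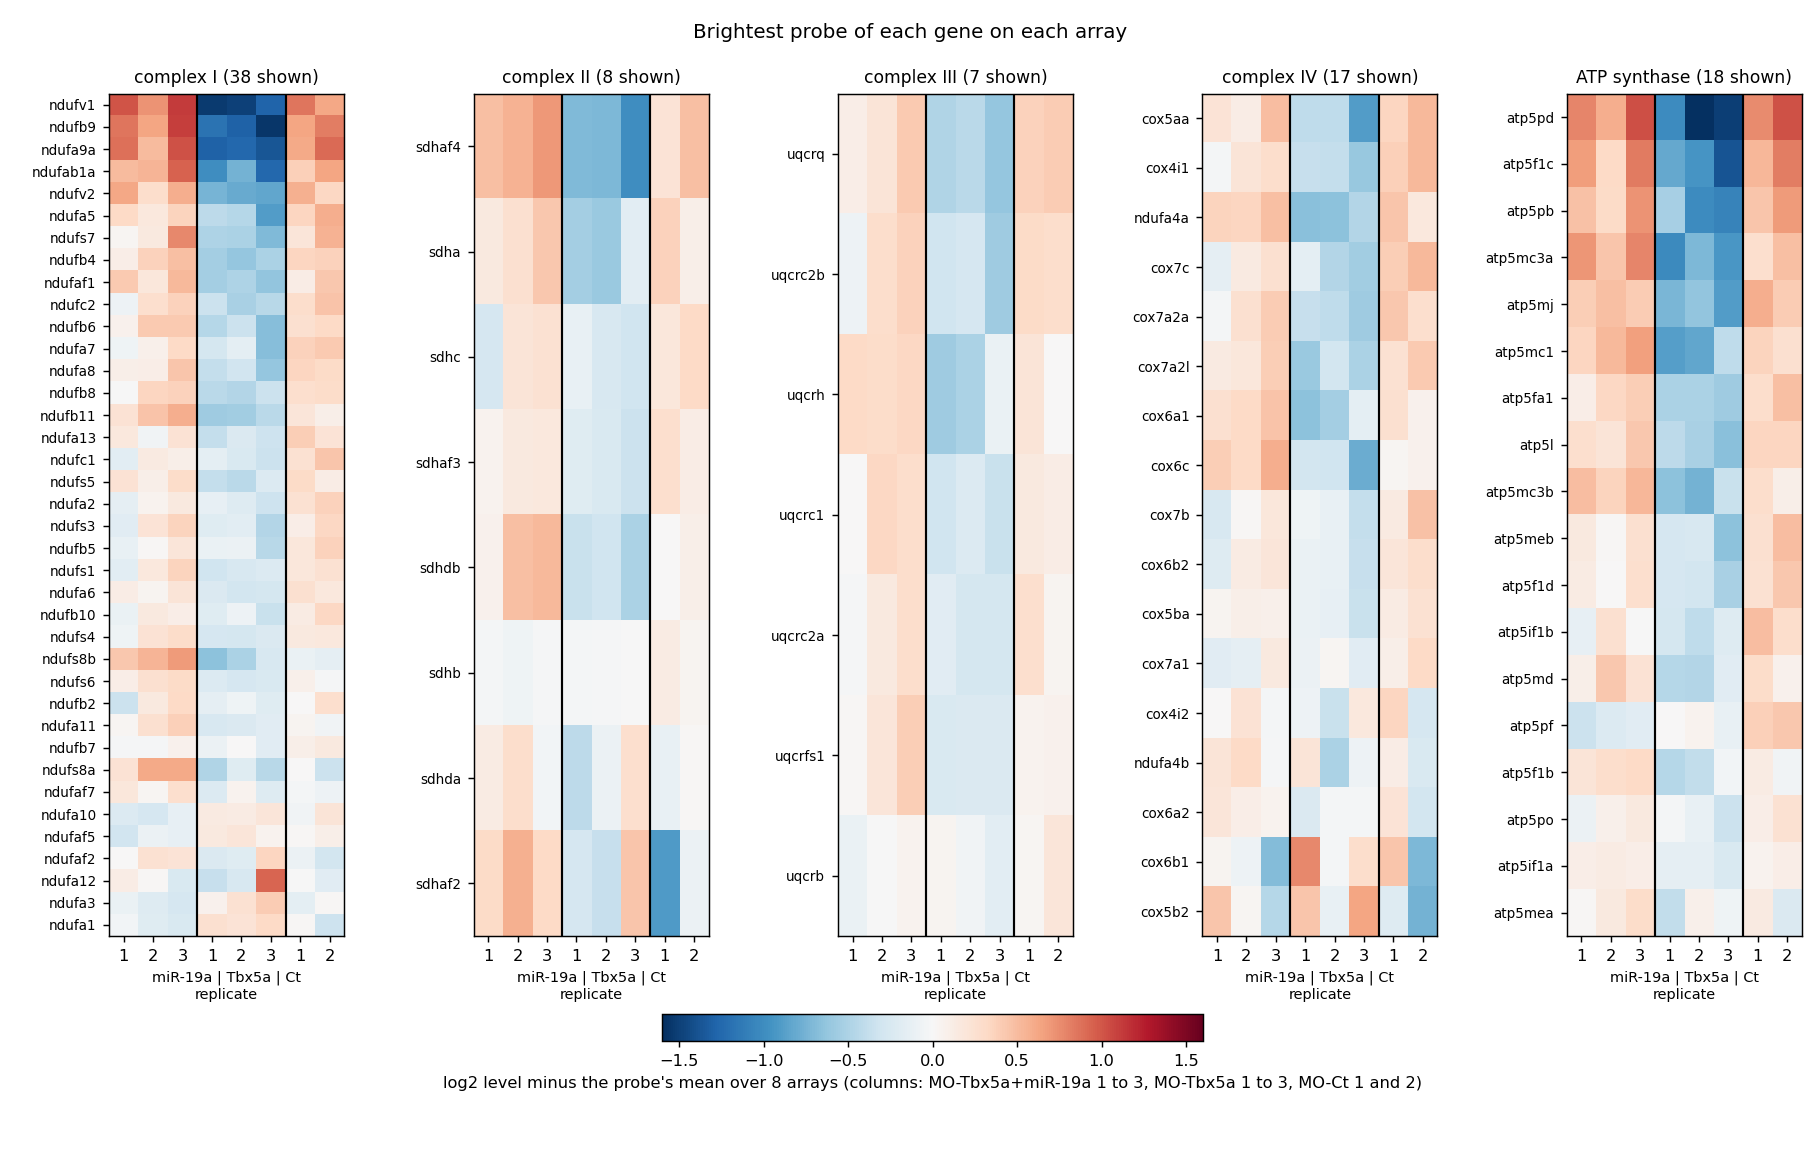
Colour gives the deposited log2 level of the brightest probe of each member gene, with 1 complex I gene left out, minus its mean over the 8 arrays, with genes in rows, ordered within each complex by the change in the depletion comparison, and arrays in columns (MO-Tbx5a+miR-19a, MO-Tbx5a, MO-Ct from left to right). Most rows are blue on the 3 middle columns; ndufa1, ndufa3 and atp5pf are among the rows that are not the lowest there.

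Probes of the same gene often differed in the size of the change. Among the 46 member genes with more than 1 probe, the mean of the other probes lay below the brightest in 35 (76.1%) in the depletion comparison, where it did so in 61.6% of 7505 named genes with several probes, and the median of the other probes minus the brightest was -0.346 (all such genes -0.131). In the mimic comparison the others lay above the brightest in 32 (69.6%, all such genes 61.9%). The median range within a member gene was 0.598 and 0.608 in these comparisons and 0.288 in the combined comparison, near the 0.52, 0.547 and 0.265 of all such genes. Counting any probe, 70 of 89 genes had a probe called lower in the depletion comparison, and 67 had a probe called higher in the mimic comparison. A gene with several probes has more chances of a call. No share of all named genes counted by any probe is given, so these 2 counts cannot be set against a background. Calls in both directions within a gene occurred in 1 member gene (2.17%) in the first comparison, against 8.27% of all such genes, and in 3 (6.52%) in the second (atp5fa1, sdhdb and uqcrfs1), against 9.7%.

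Other genes of mitochondrial energy metabolism were counted from lists, to be read against the 19.6% of all probes called lower and 18.7% called higher in the depletion comparison, and the 20.2% called higher and 21.9% called lower in the mimic comparison. Of 43 probes for 24 electron carriers, assembly factors and related genes, 17 (39.5%) were called lower and 2 higher in the depletion comparison, and 23 (53.5%) higher and 1 lower in the mimic comparison, with median changes of -0.267 and 0.433. On brightest probes, 6 of these 24 genes were called lower in the depletion comparison and 9 higher in the mimic comparison. Of all named genes, 20.6% were called lower and 16.5% higher in the depletion comparison, and 21.0% higher and 20.3% lower in the mimic comparison. Cytochrome c1 (cyc1) changed by -0.40 and 0.64 in these comparisons, and cytochrome c (cycsb) by -0.055 and 0.07 with no call. Of 25 probes for 7 nucleotide and phosphate carriers and porins, 16 (64.0%) were called lower and 2 higher in the first comparison, and 14 (56.0%) higher and 2 lower in the second (medians -0.757 and 0.74). The brightest probes did not share this lean. On them, 2 of these 7 genes were called lower and 2 higher in the first comparison, with a median of -0.283. In the second, 1 was called higher and 2 lower, with a median of 0.113. Of 42 probes for 17 genes of the tricarboxylic acid cycle and pyruvate dehydrogenase, 25 (59.5%) were called lower and 4 higher in the first, and 25 (59.5%) higher and 3 lower in the second (medians -0.484 and 0.433). On brightest probes, 10 of these 17 genes were called lower and 2 higher in the first, and 9 higher and 2 lower in the second. The pyruvate dehydrogenase gene dlat changed by -1.21 and 1.497, whereas citrate synthase (cs) was called lower in the second comparison only (-0.52). Of 14 probes for 6 genes of mitochondrial biogenesis, 5 (35.7%) were called lower in the first, and 4 (28.6%) higher and 2 (14.3%) lower in the second. Its medians (-0.105 and -0.063) lay near those of all probes (0.005 and -0.023), while tfam, which packages mitochondrial DNA, changed by -1.025 and 1.12. On brightest probes, 1 of the 6 biogenesis genes was called lower in the first, and 1 higher and 2 lower in the second. The combined comparison gave 5 higher calls of 43 probes (11.6%) for electron carriers and related genes. It gave 1 lower of 25 (4.0%) for carriers and porins. The tricarboxylic acid cycle had 1 of 42 (2.38%) in each direction, and biogenesis had 2 lower of 14 (14.3%). Of all probes, 5.24% were called higher and 5.95% lower there. The cycle list holds both dld and dldh, the reference table gives dld as an older name of dldh, and the dldh probe had no call. In zebrafish dld also names the Notch ligand deltaD, and dld and dldh were named here as separate genes. The called dld probe (-1.32 and 1.09) is counted in the list's probe and brightest-probe calls and may not belong there. Without it, a count added after its values were seen, 24 of 41 probes were called lower in the first comparison and 24 higher in the second.

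Markers of some cell types moved with the members, and their counts are to be read against the same shares of all probes. Of 25 probes for 11 skeletal muscle markers, 17 (68.0%) were called lower in the depletion comparison, and 18 (72.0%) higher and 1 lower in the mimic comparison. Summed levels of markers take only the brightest probe of each gene. That of muscle, as log2, ran between 19.32 and 19.55 in MO-Tbx5a+miR-19a embryos, 18.89 and 19.12 in MO-Tbx5a embryos and 19.55 and 19.57 in MO-Ct embryos. On brightest probes, 7 of the 11 muscle genes were called lower in the depletion comparison, and 7 higher and 1 lower in the mimic comparison. The muscle creatine kinase gene ckma changed by -1.68 and 1.40, among the larger changes of the list. The gene mylz3 changed by 0.015 without a call and was called lower in the mimic comparison (-0.41). The genes myhz2, mylpfa and pvalb1 were called in neither comparison (0.135, -0.13 and -0.455 in the depletion comparison). Of 10 probes for 5 red blood cell markers, 5 were called lower in the first comparison and 4 higher and 1 lower in the second. Their summed levels were 18.27 to 18.51 in MO-Tbx5a+miR-19a embryos, 17.45 to 17.82 in MO-Tbx5a embryos and 18.46 to 18.68 in MO-Ct embryos. On brightest probes, 3 of these 5 genes were called lower in the first comparison, and 3 higher and 1 lower in the second. The gene alas2 changed by 0.405 without a call in the first and was called lower in the second (-0.72). The gene hbbe2 was called in neither (-0.25 and 0.32).

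Of 12 probes for 5 heart markers, 5 (41.7%, all probes 18.7%) were called higher in the depletion comparison and 2 (16.7%) in each direction in the mimic comparison, below the shares of all probes (20.2% higher and 21.9% lower), and summed levels were 13.22 to 13.26 in MO-Tbx5a+miR-19a embryos, 12.87 to 13.18 in MO-Tbx5a embryos and 12.52 to 12.90 in MO-Ct embryos. Of 17 probes for 6 neuron markers, 3 (17.6%) were called higher and 8 (47.1%) lower in the depletion comparison, and 3 (17.6%) higher and 7 (41.2%) lower in the mimic comparison. The higher calls among probes were thus near or below the shares of all probes. The brightest probes differed from this in the depletion comparison. On them, 3 of the 6 neuron genes were called higher and 1 lower there (median 0.296), against 16.5% and 20.6% of all named genes. In the mimic comparison 0 were called higher and 4 lower (median -0.658), against 21.0% and 20.3%. Of 12 probes for 4 lens markers, 7 (58.3%) were called lower in the depletion comparison, and 2 (16.7%) higher and 5 (41.7%) lower in the mimic comparison. Of 6 probes for 3 notochord and hatching gland markers, 2 (33.3%) were called in each direction in the depletion comparison, and 3 (50.0%) higher and 2 (33.3%) lower in the mimic comparison. The sums that follow, like that of the heart markers, take only the brightest probe of each gene. Neuron markers summed to 13.47 to 13.53 in MO-Tbx5a+miR-19a embryos, 13.91 to 14.07 in MO-Tbx5a embryos and 13.75 to 13.87 in MO-Ct embryos. Lens markers summed to 11.87 to 12.51 in MO-Tbx5a+miR-19a embryos, 12.46 to 12.52 in MO-Tbx5a embryos and 13.27 to 13.31 in MO-Ct embryos. Notochord and hatching gland markers summed to 17.28 to 17.42 in MO-Tbx5a+miR-19a embryos, 15.67 to 16.01 in MO-Tbx5a embryos and 16.56 to 17.08 in MO-Ct embryos. On its brightest probe no marker had a mean level under 5, and dimmer probes were not counted for this. The brightest probes of nppa (5.31 to 5.89 over all arrays) and cryaa (4.76 to 6.12) were dim. In the combined comparison, 10 of 12 lens probes (83.3%) were called lower and 5 of 12 heart probes (41.7%) higher. Lower calls numbered 4 of 17 (23.5%) for neurons, 1 of 10 (10.0%) for red blood cells and 1 of 25 (4.0%) for skeletal muscle. Notochord and hatching gland had 1 of 6 (16.7%) higher. Of all probes, 5.24% were called higher and 5.95% lower there. The part of these markers in the changes of the respiratory chain genes was not tested.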

How the data were processed

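The comparisons used the log2 values the authors deposited for 39162 probes on 8 one-colour Agilent 4x44K arrays. The authors treated median signals by normexp background correction and cyclic loess before deposit, and no further normalisation was applied here. Deposited intensity values and flags of 3 scanner files served to name probes and examine the scans. The submitters' processing notes name Feature Extraction 9.1 for MO-Tbx5a+miR-19a and 10.7 for the other arrays. Probes were named by transcript accession through RefSeq genes of GRCz12tu, used for names only. All probes and 8 arrays entered the fit, which gave each group its own mean (limma 3.58.1, functions lmFit and eBayes, R 4.3.3, two-sided) and left 5 residual degrees of freedom. The code was tested on simulated data. Arrays have no read depth, and their number limits the precision. Each array is a pool of embryos, and nothing says that pools came from separate injections, so p-values measure the spread between these samples. The members, lists and markers were chosen with earlier results of these data known. Named by rule were, on the brightest probe, the genes with the highest and lowest change of each division in each comparison, all core, F1 and complex II genes, the copies of complex IV, of the c-ring and of the inhibitor, and genes with calls in both directions; others were added after their values were seen. A complex I gene named by the rule is not reported here. Alternatives were quantile normalisation, a further cyclic loess, 75th percentile scaling, a filter on dim probes, trend and robust moderation, a stricter fold change, only the arrays of both groups, the replicate block, the mean of a gene's probes and each array left out.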

Additional observations from a re-analysis of the deposited data

How the results depend on the processing

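In the depletion and mimic comparisons the median change of the members kept its direction in every alternative run. In the combined comparison, where it was -0.025, it lay above 0 after a further cyclic loess (0.019), with 75th percentile scaling (0.003) and without MO-Tbx5a+miR-19a 2 (0.005). With a fold change above 2, the calls among member probes were 43 in the depletion comparison, 46 in the mimic comparison and 0 in the combined comparison in limma. These were 27.7%, 29.7% and 0% of the members, against 7.37%, 8.41% and 1.31% of all probes. In the combined comparison 21 member probes had an unadjusted limma p under 0.05, as did 10613 of the 39162 probes. The calls among genes above that fold change were 14, 15 and 0 in the 3 comparisons, with no share of all named genes given. Leaving out each array in turn gave 90 to 110, 99 to 111 and 2 to 10 called probes in these comparisons and 47 to 63, 49 to 61 and 1 to 4 called genes, and the median changes ran from -0.647 to -0.595, from 0.538 to 0.7 and from -0.085 to 0.005. The lowest count in the combined comparison came without MO-Ct 2, and the highest came without MO-Tbx5a 3. Over all probes, the lowest and the highest share called came in the same fits. The lowest depletion count also came with the lowest such share, without MO-Ct 2. In the fits without a MO-Tbx5a or MO-Tbx5a+miR-19a array, 63.2% to 71.0% of members were called in the depletion comparison. Of all probes, 35.5% to 38.6% were. The mimic comparison gave 63.9% to 71.6% against 39.2% to 44.3%, and the combined comparison 3.23% to 6.45% against 6.1% to 14.2%. No share of all named genes is given for the gene counts with an array left out. With the replicate number as a block, 109, 111 and 4 probes and 62, 60 and 2 genes were called. The probes were 70.3%, 71.6% and 2.58% of the members, against 36.2%, 42.1% and 5.52% of all probes. No share of all named genes is given for these gene counts. Same-numbered arrays deviated from their group means with correlations between -0.222 and 0.178, and arrays of other numbers with correlations between -0.178 and 0.222. Deviations from means of 2 or 3 arrays are tied to each other, so these values cannot decide whether the numbers pair the samples. In the combined comparison, 7 of the 8 called probes lost the call in at least 1 alternative other than the stricter fold change, at which all 8 lost it, and the causes were not tested. With 2 MO-Ct arrays, leaving 1 out takes that group to a single array, which is assumed to vary like the others.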
